A study of Mus musculus with 41 samples.

Results

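4 genes were followed through the RNA-seq libraries of mouse androgenetic haploid embryonic stem cells, which carry a single set of chromosomes of paternal origin: Crygc, Crygd, Serpina3m and 1700013H16Rik. They were taken by symbol, as 4 of the 24028 gene symbols in the deposited values, chosen by the FPKM values themselves, since they stood among the largest falls when wild-type cells kept in TSa2i/L were set against wild-type cells kept in 2i/L. That difference chose them and is given here as a description. The questions asked of the values were how far each gene also fell when 2i/L cultures were switched to another medium, and how strongly lines with deleted imprinting control regions expressed it in 2i/L.

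13 of the 41 samples of the study gave RNA-seq values. All were haploid mouse embryonic stem cells, kept on feeder cells and enriched for haploid cells by flow cytometry. 2i/L is a serum medium with LIF, the Mek inhibitor PD0325901 and the Gsk3 inhibitor CHIR99021. SF/a2i/L is serum-free, with LIF, CHIR99021 and the Src inhibitor CGP77675 in place of PD0325901, and TSa2i/L lines were derived with serum in a2i/L before they were kept in SF/a2i/L. Wild-type 2i-14 in 2i/L was measured at passages 18, 39 and 50 (p18, p39 and p50). The wild-type TSa2i/L lines were TSa2i-C57, measured at p9 and p58, and TSa2i-14, measured at p22, p47 and p54. The line 2i-O48 carried deletions of H19-DMR and IG-DMR, the paternally methylated control regions of the H19 and Dlk1 imprinted clusters, and 2i-O48-TKO carried both deletions and a deletion of the H19 gene. Each of these lines, here called the DMR-deleted lines, gave 1 library in 2i/L and 1 library 5 passages after a switch to SF/a2i/L. Switched wild-type 2i-14 gave 1 library at the same time point. The labels give no passage number for the DMR-deleted lines or for switched 2i-14. The 2i/L library of a line is therefore not known to be the culture from which its switch began. The passages of one line are not separate lines, and the switch changed the serum, the inhibitor and the time in culture together, so these cannot be told apart. No TSa2i/L line was measured in 2i/L or after a switch. Medium, derivation and line therefore cannot be told apart where TSa2i/L is set against the other libraries.

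Gamma crystallins such as Crygc and Crygd are small, soluble structural proteins that pack into the fibre cells of the eye lens, where they keep it transparent, and they are encoded by a tight cluster of similar genes on mouse chromosome 1. Serpina3m belongs to the clade A serpins, secreted proteins that trap and inactivate serine proteases, and lies in a cluster on chromosome 12 that has expanded in the mouse and is best known from the liver and from inflammation. 1700013H16Rik, with the RefSeq synonyms Slx2 and Xlr6, lies on the X chromosome beside Xlr, whose family is related to the synaptonemal complex protein Sycp3 and is known mainly from germ cells and lymphocytes.

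On NCBIM37 (mm9), the build of the deposited values, Crygd lay at chr1:65108446-65110026 and Crygc at chr1:65118099-65120263, both protein-coding and on the minus strand, 8.07 kb apart. Serpina3m lay at chr12:105625374-105632467 on the plus strand. 1700013H16Rik lay at chrX:51046078-51061008 on the minus strand, 19.3 kb from Xlr. No other gene of GENCODE vM1 overlapped any of the 4.

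The RefSeq promoter windows of Crygc and Crygd are shown because the levels of these genes moved together, and that of Cryge because it belongs to the same cluster and moved with them. Each line holds the 250 bases before the annotated start, 5′ to 3′ on the minus strand of GRCm38.p6, at chr1:65073533-65073782 for Crygc, chr1:65063441-65063690 for Crygd and chr1:65051164-65051413 for Cryge. Capitals mark the longest run that the 3 windows share.
Crygc: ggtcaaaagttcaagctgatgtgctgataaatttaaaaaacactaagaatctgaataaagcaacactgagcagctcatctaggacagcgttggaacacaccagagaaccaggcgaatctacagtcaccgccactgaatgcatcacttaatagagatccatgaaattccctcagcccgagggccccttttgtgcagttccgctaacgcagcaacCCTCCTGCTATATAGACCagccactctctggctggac
Crygd: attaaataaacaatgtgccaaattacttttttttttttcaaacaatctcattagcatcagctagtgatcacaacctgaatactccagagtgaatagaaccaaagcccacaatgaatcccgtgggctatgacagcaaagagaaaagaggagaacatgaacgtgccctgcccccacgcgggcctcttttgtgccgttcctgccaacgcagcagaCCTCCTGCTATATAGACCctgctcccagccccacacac
Cryge: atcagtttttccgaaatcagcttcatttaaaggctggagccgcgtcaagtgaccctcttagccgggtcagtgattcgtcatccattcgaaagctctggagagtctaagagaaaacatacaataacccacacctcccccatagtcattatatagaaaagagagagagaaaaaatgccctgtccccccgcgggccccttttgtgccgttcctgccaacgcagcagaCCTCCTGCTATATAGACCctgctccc

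The shared run, CCTCCTGCTATATAGACC, is 18 bases long and holds a TATA-like stretch. Its last base lies 20 bases before the start of Crygc, 21 before that of Crygd and 9 before that of Cryge. On either strand it was found in 4 of 32851 promoter windows of the same length (0.0122%), those of Crygc, Crygd, Cryge and Crygf. Crygd and Cryge shared a longer stretch of 56 bases. The windows of Crygc and Crygd held 6 CpG dinucleotides each and that of Cryge 10, beside a median of 6 over all windows. The run is a description of these letters and not of a binding site. Crygf, which also holds it, was listed at 0 in every library, but its coding sequence is 98.1% identical to that of Cryge, so reads of the pair may have been divided unequally.

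The window of 1700013H16Rik, at chrX:53757832-53758081 on the minus strand of GRCm38.p6, is shown as that of a gene outside the cluster. The shared run was taken from the crystallin windows themselves, so nothing about levels is read from its absence here. It shared no run longer than 9 bases with any of the 3 crystallin windows, held 9 CpG dinucleotides and had a GC content of 56.4%, beside 47.6% for Crygc and 46.8% for Crygd.
1700013H16Rik: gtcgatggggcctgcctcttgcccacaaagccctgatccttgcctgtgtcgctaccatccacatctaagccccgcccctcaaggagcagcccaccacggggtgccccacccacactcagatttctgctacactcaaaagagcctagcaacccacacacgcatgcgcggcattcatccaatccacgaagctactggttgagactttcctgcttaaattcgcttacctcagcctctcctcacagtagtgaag

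The coding sequences set how well the reads of each gene can be told from those of its relatives. Crygd was 92.0% identical to Cryge, with a longest shared run of 153 bases, and Crygc was 84.4% identical to Crygb with a shared run of 221 bases. Serpina3m was 91.1% identical to Serpina3k. 1700013H16Rik was 49.5% identical to Xlr, with a longest shared run of 11 bases. The coding sequence of 1700013H16Rik shared no run of 50 bases with any other annotated protein-coding gene, whereas those of Crygc, Crygd and Serpina3m shared such runs with 2, 3 and 4 genes. Levels within the gamma crystallin cluster and within the Serpina3 genes therefore carry the uncertainty of how Cufflinks divided shared reads.

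Values are FPKM, the fragments of a gene scaled for the length of its transcript and for the size of the library. The depth implied by the smallest values ran from 12900000 to 19500000 fragments per library. Between 9258 and 10320 genes reached 1 FPKM. For Crygc 3 fragments corresponded to 0.382 to 0.635 FPKM, for Crygd to 0.380 to 0.631 FPKM, and each of these genes lay under that level in 6 libraries. Serpina3m and 1700013H16Rik lay above their own level of 3 fragments in all 13 libraries. Pluripotency markers such as Nanog (110 to 467 FPKM) and Pou5f1 (59.6 to 168 FPKM) were present in every library. The summed level of 15 fibroblast markers was 65.2 FPKM in 2i-14 p39, 44.6 FPKM in TSa2i-C57 p58 and 143.5 FPKM in TSa2i-14 p54. It was 10.9 FPKM in TSa2i-14 p22 and lay between 1.56 and 4.08 FPKM elsewhere. The 3 highest of these stood apart, and the wild-type differences, mean levels and correlations below are also given without them.

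Crygc was expressed in every 2i/L library and close to absent in TSa2i/L and after the switch. In 2i-14 it was at 4.82 FPKM at p18, 4.14 at p39 and 16.9 at p50, and among the DMR-deleted lines 2i-O48-TKO was at 24.3 FPKM and 2i-O48 at 12.4 FPKM. The 5 TSa2i/L libraries were at 0, 0.639 and 0.322 FPKM in TSa2i-14 p22, p47 and p54 and at 0.205 and 0.172 FPKM in TSa2i-C57 p9 and p58. Of these, TSa2i-14 p47 alone lay above the level of 3 fragments. After the switch Crygc was at 0.135 FPKM in 2i-14, 0.296 FPKM in 2i-O48-TKO and 0.910 FPKM in 2i-O48. The lowest 2i/L library lay above the highest of the 8 other libraries. The wild-type 2i/L and TSa2i/L values took part in the choice of the gene, so nothing is read from this gap.

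Crygd was also expressed in every 2i/L library and low or listed at 0 elsewhere. The 2i-14 cultures were at 12.4 FPKM at p18, 9.07 at p39 and 9.43 at p50, 2i-O48-TKO was at 26.3 FPKM and 2i-O48 at 11.5 FPKM. It was listed at 0 in TSa2i-14 p22 and in both TSa2i-C57 libraries, and was at 0.628 FPKM in TSa2i-14 p47 and 1.41 FPKM in TSa2i-14 p54. The switched cultures were at 0.132 FPKM in 2i-14, 0.433 FPKM in 2i-O48-TKO and 0 in 2i-O48, all under the level of 3 fragments. The 2i/L libraries again stood above all others. The wild-type 2i/L and TSa2i/L values took part in the choice of this gene too. The share of all genes that separate this way was not counted, so nothing is read from it.

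Serpina3m fell less far and remained detected throughout. Wild-type 2i-14 was at 39.03, 34.6 and 29.1 FPKM at p18, p39 and p50, 2i-O48-TKO at 11.3 FPKM and 2i-O48 at 18.03 FPKM. The TSa2i/L libraries were at 7.31, 2.75 and 3.44 FPKM in TSa2i-14 p22, p47 and p54 and at 7.24 and 3.00 FPKM in TSa2i-C57 p9 and p58. The earliest passage of each TSa2i/L line was the higher one. The switched cultures were at 9.54 FPKM in 2i-14, 2.54 FPKM in 2i-O48-TKO and 3.73 FPKM in 2i-O48. The lowest 2i/L library, 2i-O48-TKO, lay above the highest switched one by a small margin, and the share of all genes doing so was not counted.

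1700013H16Rik was the most abundant of the 4 in every library except TSa2i-14 p22, where Serpina3m was slightly higher. In 2i-14 it was at 60.2 FPKM at p18, 70.3 at p39 and 202 at p50, and it was at 451 FPKM in 2i-O48-TKO and 296 FPKM in 2i-O48. In TSa2i/L it was at 7.13, 7.74 and 23.5 FPKM in TSa2i-14 p22, p47 and p54 and at 9.59 and 6.26 FPKM in TSa2i-C57 p9 and p58. After the switch it was still at 73.6 FPKM in 2i-14, 318 FPKM in 2i-O48-TKO and 124 FPKM in 2i-O48. All 3 switched cultures lay above the TSa2i/L libraries and within the range of the 2i/L libraries.

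**Figure D1:**
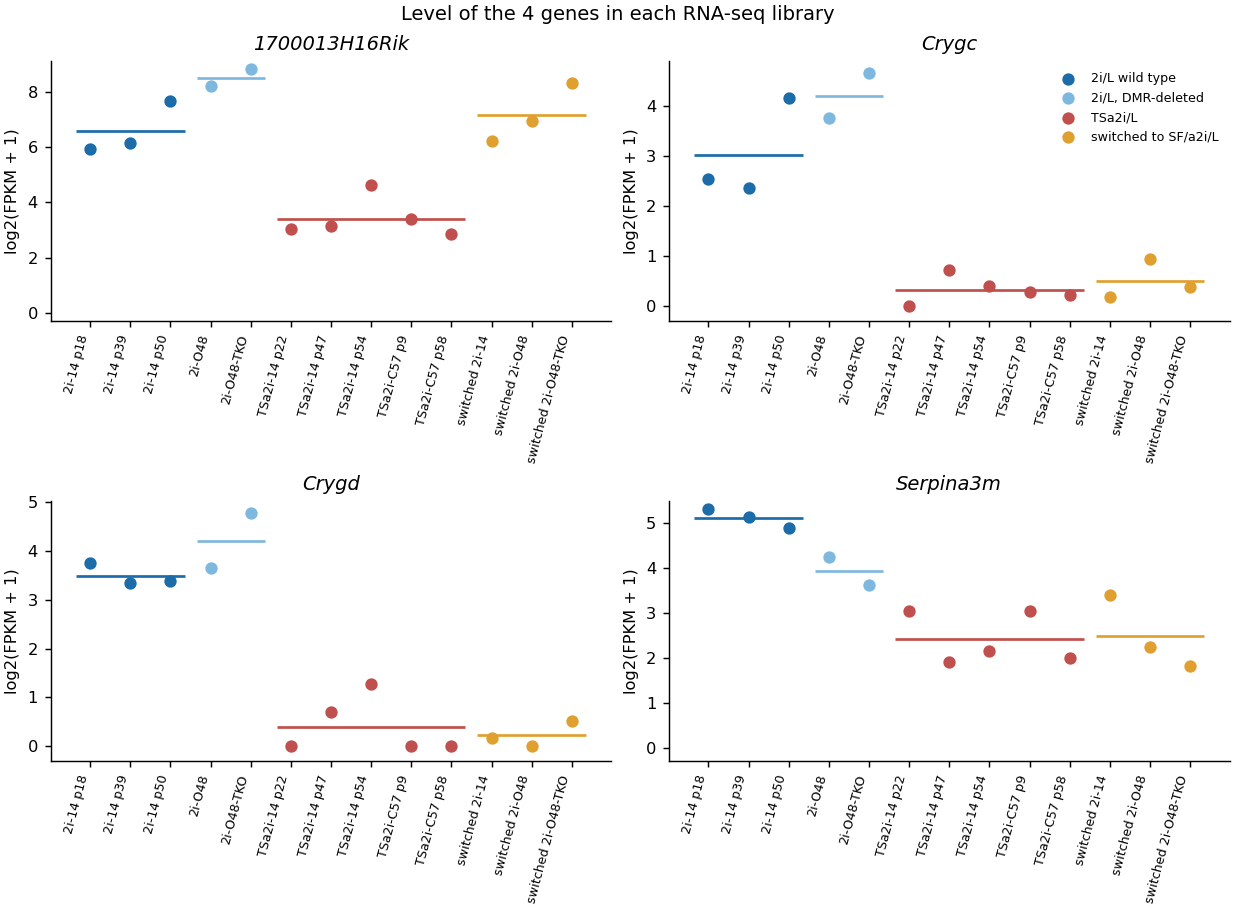
log2(FPKM + 1) of each gene (vertical axis) in the 13 RNA-seq libraries (horizontal axis), with points for libraries and lines for group means. The 2i/L libraries lie above the TSa2i/L libraries for all 4 genes, and the switched libraries lie with TSa2i/L for Crygc, Crygd and Serpina3m but between 73.6 and 318 FPKM for 1700013H16Rik. The wild-type 2i/L and TSa2i/L values chose the genes, so their separation is a description.

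As a description of the values that chose the genes, the mean difference of log2(FPKM + 1) between the 5 TSa2i/L and 3 wild-type 2i/L libraries was −3.18 for 1700013H16Rik, −3.09 for Crygd, −2.70 for Crygc and −2.70 for Serpina3m. Without the 3 libraries richest in fibroblast genes it was −3.62, −3.33, −3.03 and −2.45, and with TSa2i-14 as the TSa2i/L line alone it was −2.998, −2.83, −2.65 and −2.76. By limma 192 of 10387 genes (1.85%) were called lower in this contrast. By size of the fall the 4 genes ranked 3, 4, 6 and 7, Pramel7 came next at −2.69, and Gm5662, Snora81 and Gm5039 also ranked among the 7 lowest. Mean levels of 1700013H16Rik in wild-type 2i/L and TSa2i/L were 111 ± 79.3 (SD, n = 3) and 10.8 ± 7.19 FPKM (SD, n = 5), a ratio of 10.2. This ratio was 6.02 without 2i-14 p50, 14.4 without TSa2i-14 p54 and 16.1 without the 3 libraries richest in fibroblast genes. Mean levels of Serpina3m were 34.2 ± 5.00 (SD, n = 3) and 4.75 ± 2.32 FPKM (SD, n = 5), a ratio of 7.21, or 5.90 without those 3 libraries. The TSa2i/L means of Crygc, 0.268 ± 0.237 FPKM, and Crygd, 0.408 ± 0.624 FPKM (SD, n = 5), were under the worth of 3 fragments in each of these libraries, so no ratio is given. Without TSa2i-14 p54 and TSa2i-C57 p58 they were 0.281 and 0.209 FPKM.

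The DMR-deleted lines expressed all 4 genes in 2i/L. For 1700013H16Rik both lines lay above the 3 wild-type 2i/L libraries, with a mean of 374 ± 110 FPKM (SD, n = 2) against 111 FPKM. For Serpina3m both lay below them, at 14.7 ± 4.72 FPKM (SD, n = 2) against 34.2 FPKM. For Crygc, at 18.4 ± 8.37 FPKM (SD, n = 2), and Crygd, at 18.9 ± 10.5 FPKM (SD, n = 2), the ranges of the genotypes overlapped, with 2i-O48-TKO the highest library for both. 2 against 3 libraries cannot give a two-sided p below 0.2 in an exact permutation test, and the wild-type libraries come from a single line, so genotype and line cannot be told apart. The wild-type values also took part in the choice of the genes. The share of all genes with both lines outside the wild-type range was not counted, so nothing is read from these separations.

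The switch in the DMR-deleted lines did not enter the choice of the genes and was tested across all genes. limma was run on log2(FPKM + 1) with the cell line as a block, over 9959 genes with at least 1 FPKM in 2 of the 4 libraries, and a gene was called at a Benjamini-Hochberg adjusted p under 0.05. It called 713 genes lower (7.16% of those tested) and 318 higher. All 4 genes had an adjusted p under this threshold and lower values, but Crygc and Crygd passed the filter through the 2i/L libraries alone. Of the 300 genes that did so, 137 (45.7%) were called lower, so the calls of the 2 crystallins describe the pairs and are not counted as support. With a filter on the mean of the 4 libraries (at least 5 FPKM) the adjusted p was 1.57e-07 for Crygc and 8.97e-09 for Crygd by limma. Both genes reached that mean through their 2i/L levels, so these values are not counted as support either. With no filter limma called 0 genes, and 2192 had an unadjusted p under 0.05. 2 pairs leave 1 residual degree of freedom per gene, so the error rests mostly on the spread shared over all genes, and 2i-O48-TKO carries both deletions of 2i-O48, so the lines may not be independent.

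Crygd changed by −3.95 on the log2(FPKM + 1) scale (SE 0.32, adjusted p = 1.59e-06 by limma), by −4.25 in 2i-O48-TKO and −3.64 in 2i-O48. It ranked 9 of 9959 genes by size of the fall. Crygc changed by −3.55 (SE 0.37, adjusted p = 1.75e-05 by limma), by −4.29 in 2i-O48-TKO and −2.81 in 2i-O48, and ranked 15. Both crystallins were thus clearly expressed in the 2i/L library and at a few fragments in the switched library of either line.

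Serpina3m changed by −1.91 (SE 0.33, adjusted p = 0.00152 by limma), and its change of −1.80 in 2i-O48-TKO and −2.01 in 2i-O48 was the most even of the 4. In FPKM it was 4.84-fold lower in switched 2i-O48 and 4.46-fold lower in switched 2i-O48-TKO, although the lines differed in level in 2i/L. It ranked 103.

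1700013H16Rik changed by −0.88 (SE 0.25, adjusted p = 0.0346 by limma), by −0.51 in 2i-O48-TKO and −1.25 in 2i-O48, and ranked 974. In FPKM it was 2.39-fold lower in switched 2i-O48 and 1.42-fold lower in switched 2i-O48-TKO. Its call was lost in 6 of 10 other fits, for example with median centring (−0.66, adjusted p = 0.126 by limma) or without the block (adjusted p = 0.244 by limma). Crygc and Crygd each lost theirs in 1 of those fits and Serpina3m in 2.

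Scaling shifted the whole table. The median change of all genes tested was −0.15, and median centring moved it to 0.07. It also moved the calls from 30.8% higher to 58.8% higher. Relative to that centring Crygc changed by −3.33, Crygd by −3.73 and Serpina3m by −1.68, with adjusted p of 0.00084, 0.000137 and 0.00884 by limma. Of 10 pluripotency markers 2 were called lower in the same pairs, Nanog (−1.16, adjusted p = 0.00517 by limma) and Pou5f1 (−0.99, adjusted p = 0.02003 by limma), beside −0.88 for 1700013H16Rik, and the median of the 10 was −0.15. The part of these markers in the falls of the 4 genes was not tested. Fibroblast markers summed to 1.56 to 3.49 FPKM in the 4 libraries of this comparison.

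3 of the 4 genes, Crygc, Crygd and Serpina3m, were at least 2-fold lower on the log2(FPKM + 1) scale in both DMR-deleted pairs, beside 351 of the 9959 genes tested (3.52%). Crygc and Crygd entered the genes tested through the 2i/L libraries alone, so this share is no background for them and their falls are a description. Crygc, Crygd and Serpina3m were also at least 2-fold lower in all 3 switch pairs, beside 201 of 9759 genes (2.06%). The third pair sets switched 2i-14 against 2i-14 p50, one of the libraries that chose the genes, so nothing is read from that count.

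**Figure D2:**
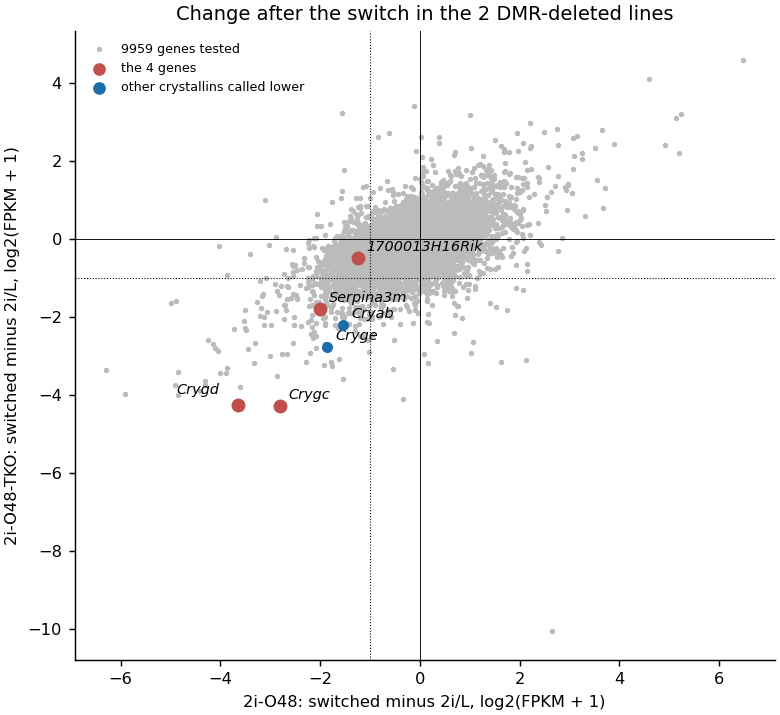
Change in log2(FPKM + 1) after the switch in 2i-O48 (horizontal axis) and 2i-O48-TKO (vertical axis) for the 9959 genes tested (grey), the 4 genes (red) and 2 further crystallins called lower (blue). Dotted lines mark a 2-fold fall. Crygc and Crygd lie far in the lower left, at −2.81 and −3.64 in 2i-O48, while 1700013H16Rik lies at the edge of the bulk of genes.

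The wild-type pair shares 2i-14 p50 with the contrast that chose the genes and is given as values. The passage at which 2i-14 was switched is not in the labels, so p50 is a choice of control. Set against it, Crygc changed by −3.98, Crygd by −3.20, Serpina3m by −1.51 and 1700013H16Rik by −1.45 on the log2(FPKM + 1) scale. For Crygd and Serpina3m the choice of control passage mattered little: against p39 they changed by −3.15 and −1.76, and against p18 by −3.56 and −1.92. Crygc, which was lower at the earlier passages, changed by −2.18 against p39 and −2.36 against p18. For 1700013H16Rik the direction turned, with differences of 0.06 against p39 and 0.29 against p18. Its level in switched 2i-14 was thus close to that of the earlier 2i/L passages of the same line.

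Crygc, Crygd and Serpina3m lay in or near the range of the TSa2i/L libraries after the switch. Serpina3m in switched 2i-14, at 9.54 FPKM, and Crygc in switched 2i-O48, at 0.910 FPKM, lay above every TSa2i/L library. Mean levels in the 3 switched cultures were 0.447 ± 0.409, 0.188 ± 0.222 and 5.27 ± 3.75 FPKM (SD, n = 3), and the ranges overlapped those of TSa2i/L. 1700013H16Rik averaged 172 ± 129 FPKM (SD, n = 3) in the switched cultures, 15.8-fold above TSa2i/L (21.1-fold without TSa2i-14 p54 and TSa2i-C57 p58) with no overlap. Since the TSa2i/L values took part in the choice of the genes, no test of this gap is given. The switched cultures and the TSa2i/L libraries also come from different lines, so culture history, derivation and line cannot be told apart in this gap.

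**Figure D3:**
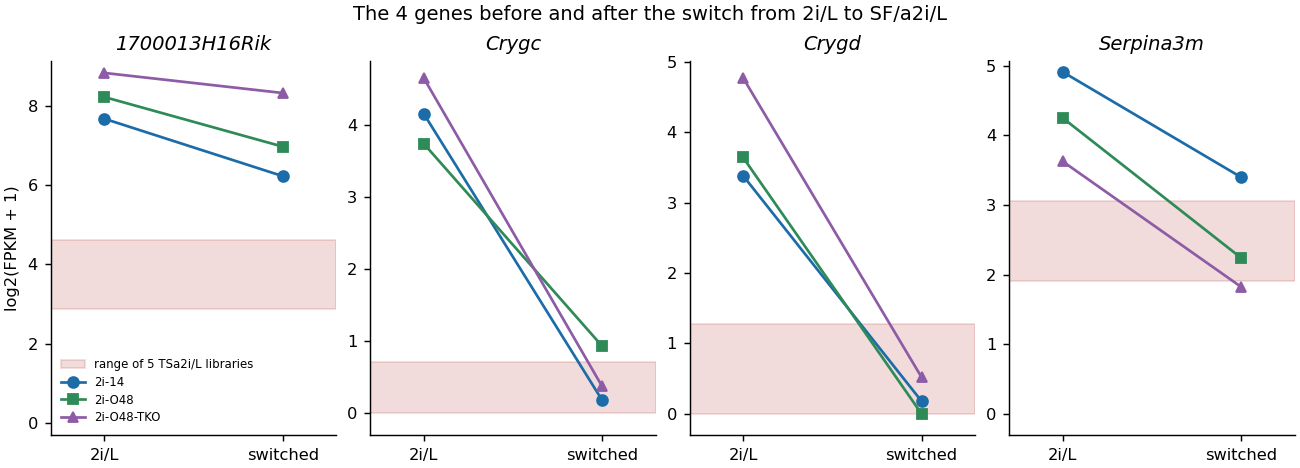
log2(FPKM + 1) (vertical axis) of the 4 genes in 2i/L and after 5 passages in SF/a2i/L (horizontal axis), with 1 line per cell line. The wild-type 2i/L point is 2i-14 p50, since the labels do not give the passage of the switch. The shaded band is the range of the 5 TSa2i/L libraries; the switched cultures lie in or beside it for Crygc, Crygd and Serpina3m and far above it for 1700013H16Rik.

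Among the 16 crystallin genes examined, 9 reached 1 FPKM in some library and 2 were listed at 0 throughout. Apart from Crygc and Crygd, 5 could be tested in the DMR-deleted pairs. 2 of these, Cryge and Cryab, were called lower and none higher, beside 7.16% of all genes tested that were called lower. Their median change was −0.61 beside −0.15 over all genes tested. Cryge and Crygs passed the filter through the 2i/L libraries alone, and 45.7% of the genes that did so were called lower. The share and median over all genes are therefore no background for Cryge and Crygs. The median of the 5 is the value of Crygs itself, and the call of Cryge is not counted as support. Cryge, the next gamma crystallin along the cluster, was in 2i-14 at 2.35 FPKM at p18, 1.78 at p39 and 3.83 at p50. The DMR-deleted lines were at 7.77 FPKM in 2i-O48-TKO and 5.60 FPKM in 2i-O48. It was at 0, 1.69 and 0.308 FPKM in TSa2i-14 p22, p47 and p54 and at 0.197 and 0.495 FPKM in TSa2i-C57 p9 and p58. After the switch it was at 0.129 FPKM in 2i-14, 0.283 FPKM in 2i-O48-TKO and 0.803 FPKM in 2i-O48. It changed by −2.32 in the DMR-deleted pairs (SE 0.32, adjusted p = 0.000226 by limma). Its highest TSa2i/L library, TSa2i-14 p47, came close to its lowest 2i/L library.

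Cryab, a small heat shock protein of the alpha crystallin family that many tissues express, followed a different course. It was at 17.0 to 69.0 FPKM in the 2i/L libraries and at 23.4 to 54.6 FPKM in TSa2i/L, so these ranges overlapped. In the switched cultures it was at 1.76 FPKM in 2i-14, 2.91 FPKM in 2i-O48-TKO and 7.52 FPKM in 2i-O48, below every other library. It changed by −1.88 in the DMR-deleted pairs (SE 0.33, adjusted p = 0.00191 by limma). Its calls and those of Cryge were also made under median centring and quantile normalization. The filter was the same in these fits, so the calls of Cryge remain a description.

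No other gamma crystallin was called, and Crygb and Crygf were too low to be tested. Cryga, at the far end of the cluster, was at 0.952 to 5.02 FPKM in 2i/L and 0 to 4.28 FPKM in TSa2i/L, and changed by −0.43 in the DMR-deleted pairs (adjusted p = 0.508 by limma). Cryga overlaps D630023F18Rik on the same strand, so its reads cannot be fully told apart from those of that gene. Crygb, which lies 6.54 kb from Crygc, stayed under 0.581 FPKM. Crygn and Crygs, outside the cluster, changed by 0.54 and −0.61 (adjusted p = 0.219 and 0.179 by limma). Cryba2 reached 8.62 FPKM in TSa2i-14 p47 and Crybb3 reached 2.06 FPKM in TSa2i-C57 p58. Lens markers apart from Mip stayed under 1 FPKM, and the summed level of the 9 lens markers was 0.559 to 2.23 FPKM over all libraries. Of 12 lens regulators and fibre genes, Mip, a lens water channel, and Birc7, an inhibitor of apoptosis, reached 1 FPKM, and Birc7 changed by −1.15 (adjusted p = 0.148 by limma).

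Of 25 clade A serpins of chromosome 12 listed, 24 had values, 5 reached 1 FPKM and 3 were tested in the DMR-deleted pairs, of which Serpina3m was called lower. Serpina3h and Serpina3i changed by 0.37 and 0.14 (adjusted p = 0.497 and 0.812 by limma). Serpina3n, the annotated gene next to Serpina3m at 12.5 kb, reached 1.59 FPKM at most, in TSa2i-C57 p58, and the closest relative by sequence, Serpina3k, stayed at or under 0.0331 FPKM and Serpina3j at or under 0.0279 FPKM. Serpina3g reached 8.81 FPKM in TSa2i-14 p54. Serpina3h was at 13.03 FPKM in 2i-14 p39, its highest library, at 7.42 FPKM in TSa2i-C57 p58 and at 8.14 FPKM in TSa2i-14 p54, the next ones. These are the 3 libraries richest in fibroblast markers; the part of those cells in the serpin levels was not tested. Serpina3m itself was at 34.6 FPKM in 2i-14 p39 and 29.1 to 39.03 FPKM in the other 2i-14 libraries. Among 10 liver markers 3 reached 1 FPKM and 2 were tested. Of these, Apoa2, an apolipoprotein, was called higher after the switch (1.47, adjusted p = 0.0137 by limma), beside 318 of all 9959 genes tested. The other, Ahsg, changed by 0.15 (adjusted p = 0.817 by limma).

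Around 1700013H16Rik, Xlr was at 4.31 to 29.4 FPKM in 2i/L, 2.13 to 6.56 FPKM in TSa2i/L and 8.34 to 16.2 FPKM in the switched cultures. It changed by −0.24 in 2i-O48-TKO and −1.70 in 2i-O48 (adjusted p = 0.0935 by limma). The neighbours AW822252 and Zfp36l3 stayed at or under 0.665 and 0.298 FPKM. The annotated neighbour 4930502E18Rik, 4.46 kb away, was at 15.6 to 43.2 FPKM in 2i/L, 6.18 to 37.4 FPKM in TSa2i/L and 44.5 to 73.5 FPKM after the switch, and changed by 0.68 (adjusted p = 0.191 by limma). Of the 14 Xlr, Slx and Sycp3 genes 11 were tested, and their median change was −0.35. 2 of them were called lower, Xlr3c (−1.75) and Xlr4c (−1.90), beside 7.16% of all genes tested, and Sycp3, a component of the synaptonemal complex of meiotic cells, was called higher (adjusted p = 0.0103 by limma). The call of Xlr4c was lost with median centring (adjusted p = 0.0705 by limma), which left 1 of the 11 called lower. The Xlr3, Xlr4 and Xlr5 genes have near-identical copies, so their separate levels are uncertain.

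**Figure D4:**
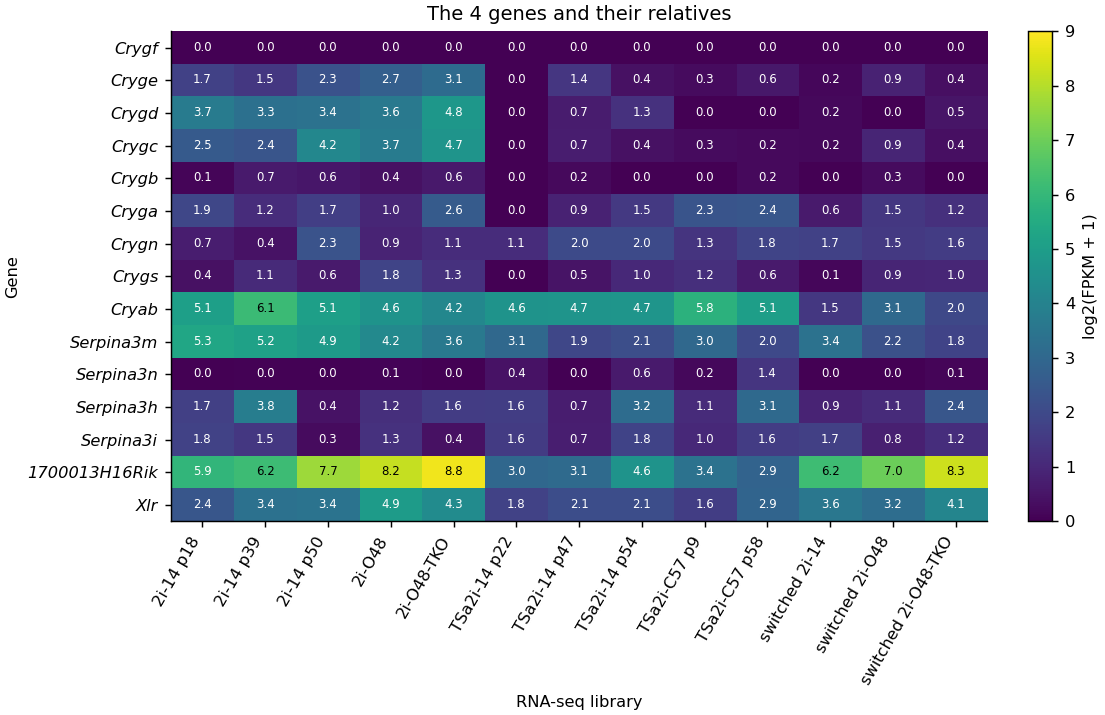
log2(FPKM + 1) (colour and printed value) of the 4 genes, other crystallins and Serpina3 genes, and Xlr (rows) in each RNA-seq library (columns). Crygc and Crygd are higher in the 5 2i/L libraries than elsewhere, and Cryge follows them at lower levels in 2i/L. Cryab is lowest in the switched libraries, and 1700013H16Rik is lowest in the TSa2i/L libraries. The wild-type 2i/L and TSa2i/L values chose the 4 genes, so their separation is a description.

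Near Crygd, the aldo-keto reductase gene Akr1cl, at a distance of 29.1 kb, was at 0.126 to 2.19 FPKM in 2i/L, 0 to 0.167 FPKM in TSa2i/L and 0 to 0.542 FPKM after the switch. It changed by −0.997 in the DMR-deleted pairs (adjusted p = 0.0234 by limma), and this call was lost with median centring (adjusted p = 0.107 by limma) and quantile normalization (adjusted p = 0.0691 by limma). Akr1cl passed the filter through the 2i/L libraries alone, and 45.7% of the genes that did so were called lower. Its call is therefore not counted as support. On the far side of Serpina3m, Gsc was at 0.683 to 2.19 FPKM in 2i/L and 0.628 to 2.14 FPKM in TSa2i/L. After the switch it was at 0.0542 to 0.886 FPKM, and it changed by −0.14 in 2i-O48-TKO and −1.60 in 2i-O48 (adjusted p = 0.0843 by limma). Gsc also passed the filter through the 2i/L libraries alone.

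Over the 13 libraries, log2(FPKM + 1) of Crygc and Crygd correlated with a Pearson r of 0.94. Serpina3m correlated with Crygc at 0.69 and with Crygd at 0.76, and 1700013H16Rik with Crygc at 0.69, with Crygd at 0.62 and with Serpina3m at 0.38. The libraries fall into groups by medium, and several share a line, so these coefficients describe the group differences and carry no test. Over the 10 libraries other than the 3 richest in fibroblast genes they were 0.95 for Crygc with Crygd, 0.67 and 0.73 for Serpina3m with Crygc and Crygd, and 0.655, 0.595 and 0.265 for 1700013H16Rik with Crygc, Crygd and Serpina3m. Among 10727 genes, the closest patterns to Crygc were those of Cryge (0.96), Popdc3 (0.96) and 5330411J11Rik (0.95), and the closest to Crygd were 5330411J11Rik (0.97), Stk33 (0.96) and Rhpn2 (0.95). Serpina3m was closest to Arglu1 (0.93), Pga5 (0.92) and Mobp (0.90), and 1700013H16Rik to Amph (0.94), Mtmr7 (0.92) and Cib1 (0.90).

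A lower value in such bulk libraries can reflect fewer expressing cells or less RNA per cell, and these cannot be told apart.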

How the data were processed

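RNA-seq values of 13 libraries were used. The methylation and chromatin samples were not analysed here. The authors amplified full-length cDNA from small numbers of haploid cells, mapped reads to mm9 with TopHat and made the deposited FPKM values with Cufflinks (TopHat2 2.0.11 and Cufflinks 2.2.1 in the submitters' processing notes). The annotation and any scaling between libraries are not given in the sources used here. Amplification from few cells makes low values noisy.

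Rows with the same symbol were summed and compared as log2(FPKM + 1), which understates the change of low genes. No count model was run, since FPKM are not read counts. limma 3.58.1 (R 4.3.3, intensity trend, Benjamini-Hochberg threshold 0.05) was fitted over all genes past the filter. Pairs come from the cell line in the labels. Across 9959 genes, the deviations of the lines before and after the switch correlated at 0.031. Where nothing in the labels says that libraries came from separate cultures, p-values measure the spread between these libraries, which may be technical. The level of 3 fragments was estimated from the smallest values and covers counting error only. Coding identities used GENCODE vM1, promoters RefSeq on GRCm38.p6. 3 of the 4 genes had a promoter window. Python 3.11.15, numpy 2.4.6, pandas 2.3.3 and matplotlib 3.10.9 were used, and the tests were checked on simulated data.

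The 4 genes and the gene lists were chosen with earlier results of these data known. Named genes were the 4, members of the crystallin, serpin, Xlr and lens lists that reached 1 FPKM, the 3 nearest annotated genes on either side and the 3 most correlated genes for each. Crygb, Crygf and Pramel7 were added as relatives or as the next gene by size, and Apoa2 and Ahsg after their values were seen. Alternatives covered the pseudocount (0.1), the filter, scaling, the trend, repeated symbols, the block, the control passage and the leaving out of each line or library. The checks of the filter, of the lists without the 4 genes, and of mean levels and correlations without single libraries were added after seeing the data.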

Additional observations from a re-analysis of the deposited data

Results flagged for a closer look

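Among 9 genes examined for a library standing apart within the 5 TSa2i/L libraries, 3 were picked out by Dixon's ratio, the gap of an extreme library to its neighbour over the range of the group, at the 95% critical value, which chance passes in about 1 of 20 groups. 1700013H16Rik was highest in TSa2i-14 p54 (23.5 FPKM, the others 6.26 to 9.59 FPKM), with a ratio of 0.807. TSa2i-14 p54 also held the highest summed level of fibroblast markers, 143.5 FPKM, and the part of those cells was not tested. TSa2i-C57 p58 was highest for Xlr (6.56 FPKM, the others 2.13 to 3.37 FPKM), with a ratio of 0.720. For Cryab the library apart was TSa2i-C57 p9 (54.6 FPKM, the others 23.4 to 32.3 FPKM), with a ratio of 0.716.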

How the results depend on the processing

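Of 10 other fits of the DMR-deleted switch, Crygc and Crygd kept their direction in all and their call in 9, Serpina3m in 8 and 1700013H16Rik in 4. In every filtered fit Crygc and Crygd passed through their 2i/L levels, so the calls they kept are not counted as support. With no filter on low FPKM 0 genes were called by limma, 2192 had an unadjusted p under 0.05, and all 4 genes lost their call, with adjusted p of 0.522 to 0.622. By construction that fit adds genes near 0 to the shared estimate of spread. Serpina3m was also not called with switched 2i-14 added and no block (adjusted p = 0.0983), a fit that also changes the samples. Adjusted p over the fits ran from 0.0181 to 0.622 for 1700013H16Rik, 1.57e-07 to 0.528 for Crygc, 8.97e-09 to 0.522 for Crygd and 0.000346 to 0.522 for Serpina3m. The block comes from the cell line: without the replicate block 423 genes were called, against 1031 with it, and of the 4 genes 1700013H16Rik alone lost its call. Adding the 2i-14 pair gave 672 calls, and adding switched 2i-14 without the block gave 635. Genes at least 2-fold lower in both DMR-deleted pairs numbered 351. They were 552 with a pseudocount of 0.1, 219 at a mean of at least 5 FPKM, 218 with quantile normalization and 200 with median centring, and 659 to 1224 when either line was left out. In all 3 pairs they numbered 201, and 314 with a pseudocount of 0.1, 125 at a mean of at least 5 FPKM and 279 to 324 when a line was left out. With a pseudocount of 0.1 the wild-type difference was −4.54 for Crygc and −5.33 for Crygd. The cause of these shifts was not tested. Depth limits Crygc and Crygd outside 2i/L, where a few fragments set each value.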
